A study of Mus musculus with 2 samples.

Results

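Nkx2-5, Gata4, Gata5, Gata6, Tbx5, Tbx20, Hand1, Mef2c, Tbx18 and Wt1 encode transcription factors of the developing heart, and these 10 genes were taken by symbol from the 32285 genes of the deposited count matrices. Their transcripts were followed in single cells that carried eYFP at E13.5, a mid-gestation stage, sorted from the tissue above the liver and read as droplet libraries. The control library came from Isl1-Cre;R26R-eYFP embryos and the mutant library from Isl1-Cre;R26R-eYFP;Pik3caH1047R embryos, so that both carried the Isl1-Cre driver and the eYFP reporter and differed by the activated allele of Pik3ca, the catalytic subunit of a PI3-kinase. In both genotypes Cre acts in cells that have expressed Isl1, which include cardiopharyngeal mesoderm but also neurons and foregut cells, and the embryos were of a mixed C57BL/6J and ICR background. Each genotype was 1 library of 3 pooled embryos, so no test between genotypes was possible and every interval given here covers counting error only.

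The heart is built from a small set of regulators that bind DNA together and switch on each other and the contractile genes. Nkx2-5 (an NK2 homeodomain protein), Gata4, Gata5 and Gata6 (zinc finger proteins of the GATA family), Tbx5 and Tbx20 (T-box proteins), Hand1 (a bHLH protein) and Mef2c (a MADS-box protein) form its core in heart muscle and endocardium. Tbx5 is known from the first heart field, the atria and the forelimb, and Hand1 from the left ventricle. Tbx18 and Wt1 mark the epicardium, the mesothelium that covers the heart and sends cells into it, and Wt1 is also known from other mesothelia. Several of the factors work outside the heart as well: Gata6 in arteries, lung mesenchyme and foregut, Mef2c in skeletal muscle, endothelium and neural crest, Tbx5 in lung mesenchyme, and Hand1 in sympathetic neurons.

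After cells with too few or too many detected genes (outside 2000 to 9000) or at least 10% mitochondrial UMIs (unique molecular identifiers, 1 per captured transcript) had been set aside, 6272 cells remained, 2783 from the control and 3489 from the mutant library, with medians of 20412 and 16839 UMIs. The libraries shared 12 barcodes among these cells. Cells were grouped without use of the 10 genes, and groups were named from marker lists. All 10 cardiomyocyte markers, all 13 endothelial markers and all 9 mesothelial markers were raised in their classes, whereas 4 of 5 markers were raised in the control and 3 of 5 in the mutant lung and foregut mesenchyme-like cells. The pools differed in sex: 95.5% of control cells held Xist transcripts and none of Ddx3y, Uty, Kdm5d and Eif2s3y, against 33.6% of mutant cells. The sex of the embryos and their genotype cannot be told apart. The mutant library also held 47 hepatoblast-like cells, whereas the control library held none, although the dissection was to leave out the liver. Levels are given as CPM, the UMIs of a gene in every 1000000 UMIs of all cells of a class in a library, with 95% Poisson intervals, and they are compared between classes and libraries but not between genes.

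Nkx2-5 and Tbx20 are shown by their promoters because cardiomyocyte-like cells had their highest control levels, and Mef2c because its counts sum over 3 start sites. The windows are the 250 bases before each start site in RefSeq on GRCm38.p6. Nkx2-5 (chromosome 17, minus strand, 26838664 to 26845009) has its window at chr17:26841566-26841815, inside the span of the GENCODE gene. Tbx20 (chromosome 9, minus strand, 24718138 to 24774303) has its window at chr9:24774304-24774553. Mef2c (chromosome 13, plus strand, 83504034 to 83667080, 31 annotated transcripts) has windows at chr13:83503784-83504033, chr13:83523406-83523655 and chr13:83573357-83573606. Capitals mark matches, on either strand, to the GATA motif GATAA, the NK2 motif AAGTG and the T-box motif GGTGTG.
Nkx2-5: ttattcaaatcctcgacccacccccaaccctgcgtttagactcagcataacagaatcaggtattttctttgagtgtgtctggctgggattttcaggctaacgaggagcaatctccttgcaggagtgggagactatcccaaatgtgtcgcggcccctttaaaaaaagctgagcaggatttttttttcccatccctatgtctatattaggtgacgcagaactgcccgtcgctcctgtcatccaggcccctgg
Tbx20: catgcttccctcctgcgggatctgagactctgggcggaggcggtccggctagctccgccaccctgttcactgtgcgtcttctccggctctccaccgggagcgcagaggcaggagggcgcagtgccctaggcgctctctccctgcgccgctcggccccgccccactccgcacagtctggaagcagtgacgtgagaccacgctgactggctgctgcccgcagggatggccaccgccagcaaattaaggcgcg
Mef2c, upstream start site: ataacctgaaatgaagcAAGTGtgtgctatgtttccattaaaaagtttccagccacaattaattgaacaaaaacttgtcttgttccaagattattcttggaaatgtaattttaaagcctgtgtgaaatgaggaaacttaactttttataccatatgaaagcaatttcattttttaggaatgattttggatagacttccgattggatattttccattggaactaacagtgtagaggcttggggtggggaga
Mef2c, middle start site: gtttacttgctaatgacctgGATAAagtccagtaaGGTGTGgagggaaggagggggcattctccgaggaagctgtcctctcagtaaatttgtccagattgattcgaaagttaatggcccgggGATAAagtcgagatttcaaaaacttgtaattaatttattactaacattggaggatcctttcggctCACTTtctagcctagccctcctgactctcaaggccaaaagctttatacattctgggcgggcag
Mef2c, downstream start site: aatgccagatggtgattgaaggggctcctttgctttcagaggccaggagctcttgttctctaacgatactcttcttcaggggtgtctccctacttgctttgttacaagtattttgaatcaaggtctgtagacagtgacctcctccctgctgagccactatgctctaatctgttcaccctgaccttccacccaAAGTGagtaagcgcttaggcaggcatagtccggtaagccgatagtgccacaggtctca

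The windows of Nkx2-5 and Tbx20 held none of these motifs. The middle Mef2c window held 2 GATA matches, 1 NK2 match and 1 T-box match, and the other 2 Mef2c windows held 1 NK2 match each, with no overlap between matches. Among 32851 RefSeq windows of the same length, 22.6% held the GATA letters, 40.7% the NK2 letters and 16.3% the T-box letters, so these matches are frequent and describe the sequence without marking a bound site. Windows were also found for Gata5, with no match, and Tbx18, with 1 NK2 match. Gata4, Gata6, Tbx5, Hand1 and Wt1 had no entry. In GENCODE vM21 on GRCm38, Gata4 lies on chromosome 14 (minus strand, 63198922 to 63271692), Gata5 on chromosome 2 (minus strand, 180325133 to 180334699, with Gata5os on the opposite strand), Tbx5 on chromosome 5 (plus strand, 119832668 to 119885219), Hand1 on chromosome 11 (minus strand, 57828705 to 57832818) and Tbx18 on chromosome 9 (minus strand, 87702800 to 87731260, with D030062O11Rik opposite). No other gene overlapped any of the 10 on its own strand, and the UMIs count whole genes without telling transcripts apart.

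Each gene had a class in which its level was highest, though for several of them the next class had an overlapping interval. These classes included cardiomyocyte-like, mesothelium-like, smooth muscle and mural-like and neuron-like cells. The endothelial-like class as a whole was highest for none of the genes. Nkx2-5 was highest in cardiomyocyte-like cells, 47.6-fold over the next class in the control and 75.5-fold in the mutant library. Gata4 and Gata6 were highest in mesothelium-like cells in both libraries, with Gata4 1.94-fold and 2.54-fold and Gata6 2.51-fold and 2.51-fold over the next class. Tbx18 in mesothelium-like cells was 2.77-fold over the mesenchyme-like cells in the control and 14.7-fold in the mutant library. Wt1 there was 6.88-fold and 16.7-fold over the next class, an unnamed group of cells led by Bmpr1b and Lama2.

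**Figure D1:**
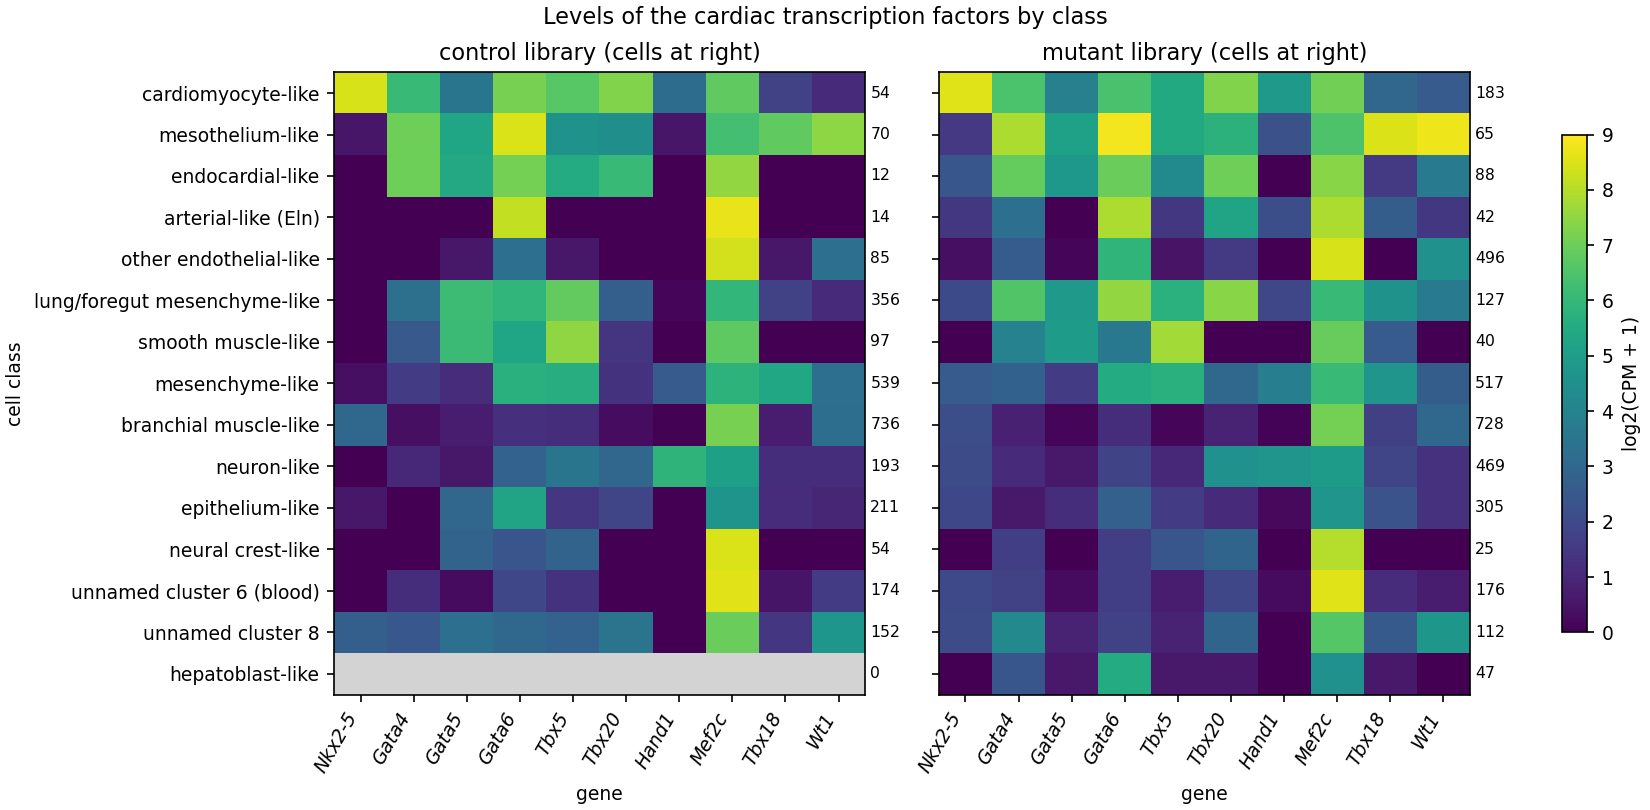
Heat map of log2(CPM + 1) for the 10 genes (columns) in the classes and endothelial subsets (rows) of the control and the mutant library, with the number of cells at the right; grey marks a class without cells. Nkx2-5 stood at 346 and 379.6 CPM in cardiomyocyte-like cells and Wt1 at 176 and 432 CPM in mesothelium-like cells; the arterial-like subset led by Esm1 and the lymphatic-like subset are not drawn.

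Most of the other peaks lay outside heart muscle, apart from those of Tbx20 in the control and Hand1 in the mutant library. Tbx5 was highest in smooth muscle and mural-like cells, at 181 [158–206] CPM in the control (228 UMIs in 97 cells) and 213 [178–253] CPM in the mutant library (129 UMIs in 40 cells). This class had 6 of its 8 markers raised, and also 4 of the 5 lung and foregut mesenchyme markers. Which kind of smooth muscle it held was not tested. Gata5 was at 70.4 CPM in lung and foregut mesenchyme-like cells and 69.7 CPM in smooth muscle and mural-like cells of the control, with overlapping intervals. Hand1 was highest in neuron-like cells of the control, 7.02-fold over the cardiomyocyte-like cells, while in the mutant library its levels in these classes, 24.6 and 28.3 CPM, had overlapping intervals. Mef2c was at 382, 360.3 and 323 CPM in 3 control classes whose intervals overlapped between neighbours in this order, a hemoglobin and macrophage group, neural crest-like cells and endothelial-like cells. Tbx20 peaked in cardiomyocyte-like cells of the control, 7.42-fold over mesothelium-like cells, and in the mutant library its levels in lung and foregut mesenchyme-like cells (169 CPM) and cardiomyocyte-like cells (155 CPM) had overlapping intervals.

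The UMIs of each gene were spread over the classes as follows. Cardiomyocyte-like cells held 63.4% of the Nkx2-5 UMIs of the control library and 86.5% of those of the mutant library. Mesothelium-like cells, 70 and 65 in number, held 55.4% and 20.9% of the Gata4 UMIs, 51.3% and 46.7% of the Wt1 UMIs and 34.9% and 50.2% of the Tbx18 UMIs. Lung and foregut mesenchyme-like cells, 356 and 127 in number, held 69.3% and 30.5% of the Gata5 UMIs and 50.4% and 16.1% of the Tbx5 UMIs. Endothelial-like cells, 147 and 695 in number, held 12.8% and 40.5% of the Mef2c UMIs. Since these shares depend on cell numbers as well as levels, levels per class are used in the comparisons that follow.

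Heart muscle was read from 54 control and 183 mutant cardiomyocyte-like cells. Nkx2-5 was detected in 53 of 54 control cells and 176 of 183 mutant cells, at 346 [308–388] and 379.6 [359–401] CPM. The median depth of these cells was 14424 and 15868 UMIs. In epithelium-like cells, taken for comparison, 0.948% and 2.95% of cells held an Nkx2-5 UMI at medians of 15632 and 15843 UMIs. Whether some epithelium-like cells transcribe Nkx2-5 themselves was not tested. Tbx20 stood at 157 [132–186] and 155 [142–169] CPM, Gata4 at 65.8 [49.8–85.3] and 87.0 [77.1–97.9] CPM, and Mef2c at 109.7 [88.7–134] and 135 [123–149] CPM. Nkx2-5 and Tbx20 were thus close in the 2 libraries, with log2 ratios of mutant over control of 0.13 (−0.05 to 0.32) and −0.02 (−0.30 to 0.26). The ratio of Gata4 was 0.40 (−0.01 to 0.84), that of Mef2c 0.30 (−0.02 to 0.64) and that of Gata5, on 9 and 45 UMIs, 0.43 (−0.62 to 1.65). No ratio of these 5 genes passed 1.5-fold.

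Gata6, Tbx5, Hand1 and Tbx18 passed 1.5-fold in cardiomyocyte-like cells. Gata6 was at 142 [118–169] CPM in the control and 83.6 [73.9–94.2] CPM in the mutant library, a log2 ratio of −0.76 (−1.08 to −0.44), and Tbx5 at 100.5 [80.5–124] and 43.5 [36.6–51.4] CPM, a log2 ratio of −1.21 (−1.60 to −0.80). Hand1 lay the other way, at 8.08 [3.25–16.7] CPM in 3 of 54 control cells and 28.3 [22.8–34.7] CPM in 40 of 183 mutant cells, a log2 ratio of 1.81 (0.71 to 3.16). Tbx18 was at 2.31 and 6.84 CPM on 2 and 22 UMIs, a log2 ratio of 1.57 whose interval, −0.46 to 4.70, included equal levels. A gene was compared where it had 20 or more UMIs in a class over both libraries, and thus 4 of 9 compared genes were past 1.5-fold, 2 in each direction, beside 35.0% of the 9731 genes of the class that were past it in either direction, and the median log2 ratio of the 9 was 0.30 beside −0.05 over all genes. Wt1, on 1 and 16 UMIs, was not compared. In the 11 control and 12 mutant female-like cells the log2 ratio of Mef2c was −1.04. Among all 54 control cells of this class 0 were male-like, and among the 183 mutant cells 82 were. Most control cells of the class thus had no sex call, unlike the control library as a whole.

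The cardiomyocyte-like cells were not alike in the 2 libraries, and several of the genes differed between cells with and without much Myl2. Myl2, which encodes the regulatory light chain of ventricular myosin, had no UMI in 72 of the cells, 40 of them control cells. At 10 Myl2 UMIs per 10000 the class divided into 11 control and 142 mutant Myl2-high cells and 43 control and 41 mutant Myl2-low cells, a limit chosen after the data were seen, with 20 cells near it. Over both libraries Hand1 was at 38.0 CPM in the Myl2-high and 1.29 CPM in the Myl2-low cells (96 and 2 UMIs, log2 ratio 4.88, 2.99 to 7.95). Tbx5 lay the other way, at 21.8 and 111 CPM (log2 ratio −2.35, −2.81 to −1.90), and so did Tbx20 at 103 and 241 CPM (−1.23, −1.46 to −0.99) and Gata6 at 70.8 and 137 CPM (−0.95, −1.25 to −0.66). With the libraries pooled, Nkx2-5 was at 369 and 378 CPM and Mef2c at 132 and 127 CPM, levels that hardly differed between the 2 groups. Within the control alone, Nkx2-5 was at 260 CPM in Myl2-high and 366 CPM in Myl2-low cells, a log2 ratio of −0.49. The upper bound of its interval was −0.01, and in the mutant library Nkx2-5 was at 377 and 388 CPM (−0.04). Pooled in the same way, Gata4 was at 75.9 and 93.3 CPM, with an interval of its log2 ratio from −0.62 to 0.02. Its log2 ratio was −0.66 (−1.02 to −0.29) within the mutant library and 0.41 (−0.61 to 1.33) within the control. Tbx18 was at 4.35 and 8.36 CPM on 11 and 13 UMIs over both libraries.

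**Figure D2:**
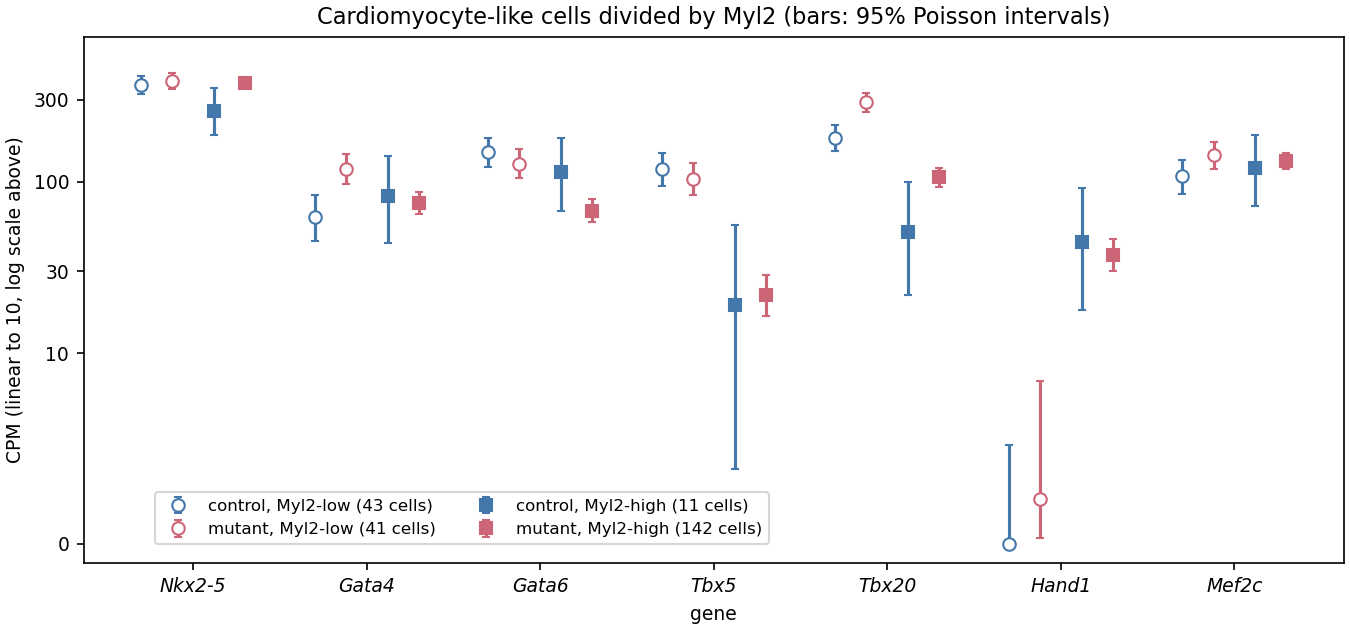
Levels in CPM (linear to 10, logarithmic above) of 7 genes in Myl2-low and Myl2-high cardiomyocyte-like cells of each library, with 95% Poisson intervals as bars. Tbx5 was at 119 and 104 CPM in the Myl2-low cells and at 19.0 and 21.9 CPM in the Myl2-high cells of the control and mutant library, whereas Hand1 was at 0 and 2.36 CPM and at 44.4 and 37.5 CPM.

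Tbx5 and Hand1 lay the same way in each library on its own. Tbx5 was at 119 CPM in Myl2-low and 19.0 CPM in Myl2-high cells of the control (84 and 3 UMIs), and at 104 and 21.9 CPM in the mutant library (88 and 52 UMIs). All 7 Hand1 UMIs of the control and 89 of 91 of the mutant library came from Myl2-high cells. Within the Myl2-low cells, the log2 ratio of mutant over control was −0.19 (−0.64 to 0.26) for Tbx5 and −0.22 (−0.62 to 0.19) for Gata6, and within the Myl2-high cells it was 0.21 (−1.42 to 2.53, 3 control UMIs) for Tbx5 and −0.24 (−1.34 to 1.11) for Hand1. These groups held as few as 11 cells, under the minimum of 50 used for classes. Tbx5 was not past 1.5-fold in either group and Hand1 not in the Myl2-high cells, while in Myl2-low cells Hand1, on 0 and 2 UMIs, was not compared. For Gata6 the Myl2-high cells still gave −0.75 (−1.46 to 0.04), on 11 control cells, and Tbx18, on 2 and 11 UMIs, was at 2.82 and 12.997 CPM in Myl2-low cells. Tbx20, at equal levels in the class as a whole, was higher in the mutant library in both groups, at 0.69 (0.37 to 1.01) in Myl2-low and 1.07 (0.07 to 2.29) in Myl2-high cells. The log2 ratio of Gata4 was 0.94 (0.42 to 1.49) in Myl2-low and −0.13 in Myl2-high cells, and whether these differ was not tested.

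Other regulators of the heart, a list of 24, were mixed as well. Of the 19 compared in cardiomyocyte-like cells, 3 were past 1.5-fold higher in the mutant library and 6 lower, beside the 35.0% of all compared genes past it, with a median log2 ratio of −0.14 beside −0.05. Irx4, a ventricular homeobox factor, was at 2.31 and 72.4 CPM (2 control UMIs, log2 ratio 4.97, 3.10 to 8.03), and Hey2, a Notch effector of the compact ventricle, at 13.9 and 53.5 CPM (1.95). Lower in the mutant library were Nr2f1 (61.2 and 19.6 CPM, log2 ratio −1.64) and Nr2f2 (91.2 and 56.9 CPM, −0.68), the nuclear receptors known for atrial identity, and Tbx2 (16.2 and 3.11 CPM, −2.38), a T-box repressor of the atrioventricular canal. Mef2a (−1.24), Zfpm2 (−0.75), which encodes a GATA cofactor, and Meis1 (−0.62) were also lower. Irx4 was at 88.2 CPM in Myl2-high and 7.72 CPM in Myl2-low cells and Nr2f2 at 19.4 and 137 CPM over both libraries. Within the Myl2-high cells Irx4 was still at 6.34 and 93.6 CPM (1 and 222 UMIs, log2 ratio 3.88, 1.39 to 9.19), within the Myl2-low cells Hey2 was at 2.82 and 33.1 CPM (2 and 28 UMIs, 3.55, 1.56 to 6.67), and Nr2f2 there lay the other way, at 105.9 and 163 CPM (0.62, 0.21 to 1.05). Isl1, the gene whose driver marked the cells, was at 3.46 and 6.53 CPM on 3 and 21 UMIs (log2 ratio 0.91, −0.83 to 3.30).

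Mesothelium-like cells held the highest levels of the epicardial factors and of Gata4 and Gata6, and most of these were higher in the mutant library. Tbx18 was at 110.0 [96.5–125] CPM in the control and 368 [333–406] CPM in the mutant library, a log2 ratio of 1.74 (1.51 to 1.98), and a UMI was found in 55 of 70 and 58 of 65 cells. Wt1 (chromosome 2, plus strand, 105126529 to 105173616) was at 176 [159–194] and 432 [394–473] CPM, a log2 ratio of 1.30 (1.10 to 1.498), and was detected in 70 of 70 and 62 of 65 cells. The intervals of the 2 libraries did not overlap for either gene. Gata4 was at 128 [113–144] and 239 [211–269.8] CPM (log2 ratio 0.90, 0.65 to 1.15). Gata6 (chromosome 18, plus strand, 11052064 to 11085635, with 1010001N08Rik on the opposite strand) was at 356 [331–382] and 462 [422–504] CPM (0.38, 0.21 to 0.54), under 1.5-fold.

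Tbx20 and Tbx5, the T-box genes of heart muscle, lay in the same direction in the mesothelium. Tbx20 was at 21.2 and 53.5 CPM (46 and 58 UMIs, log2 ratio 1.34, 0.75 to 1.93) and Tbx5 at 23.9 and 43.3 CPM (52 and 47 UMIs, 0.86, 0.26 to 1.45). Mef2c (0.18) and Gata5 (−0.15) were within 1.5-fold, and Nkx2-5 and Hand1 were near absent, with at most 4 UMIs in either library. Of the 8 compared genes, 5 were past 1.5-fold higher in the mutant library and none was lower, beside 39.0% of the 10925 genes of the class past it in either direction, and the median log2 ratio was 0.88 beside 0.05 over all genes. With cells thinned to 5000 UMIs, Tbx5 was at 0.42, under 1.5-fold, and Gata5 at −1.43, and with the mean over cells Tbx20 was at 0.58, also under it. The class markers summed to 2288 and 2478 CPM, so the sum of the mesothelial markers was close, though single markers were not compared. The list does not set epicardium apart from other mesothelia. A different mix of these in the class and a change within its cells cannot be told apart. The median depth was 28114 and 13729 UMIs per cell. The sexes of the cells differed, with 68 female-like control cells against 22 female-like and 36 male-like mutant cells, and in female-like cells alone the ratios of Tbx18 and Wt1 stayed past 1.5-fold. Cardiomyocyte markers reached 0.954% and 3.80% of their cardiomyocyte level in these cells, and Nkx2-5, at 0.460 and 1.84 CPM, lay under the 3.31 and 14.4 CPM that the same share of its cardiomyocyte level would give.

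Among the other regulators in the mesothelium, 7 of 16 compared genes were past 1.5-fold higher in the mutant library and 3 lower, beside the same 39.0% of all compared genes. Tcf21, a bHLH factor of epicardial cells and mesenchyme, was at 22.1 and 219 CPM (log2 ratio 3.31), and Tead1, a partner of YAP, at 139.9 and 439 CPM (1.65). Isl1 lay the other way, at 56.1 CPM in the control (122 UMIs) and 7.38 CPM in the mutant library (8 UMIs), a log2 ratio of −2.93 (−4.17 to −1.90). In endothelium-like cells, at 3.70 and 12.6 CPM, and in branchial muscle-like cells, at 22.7 and 36.6 CPM, Isl1 was higher in the mutant library.

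**Figure D3:**
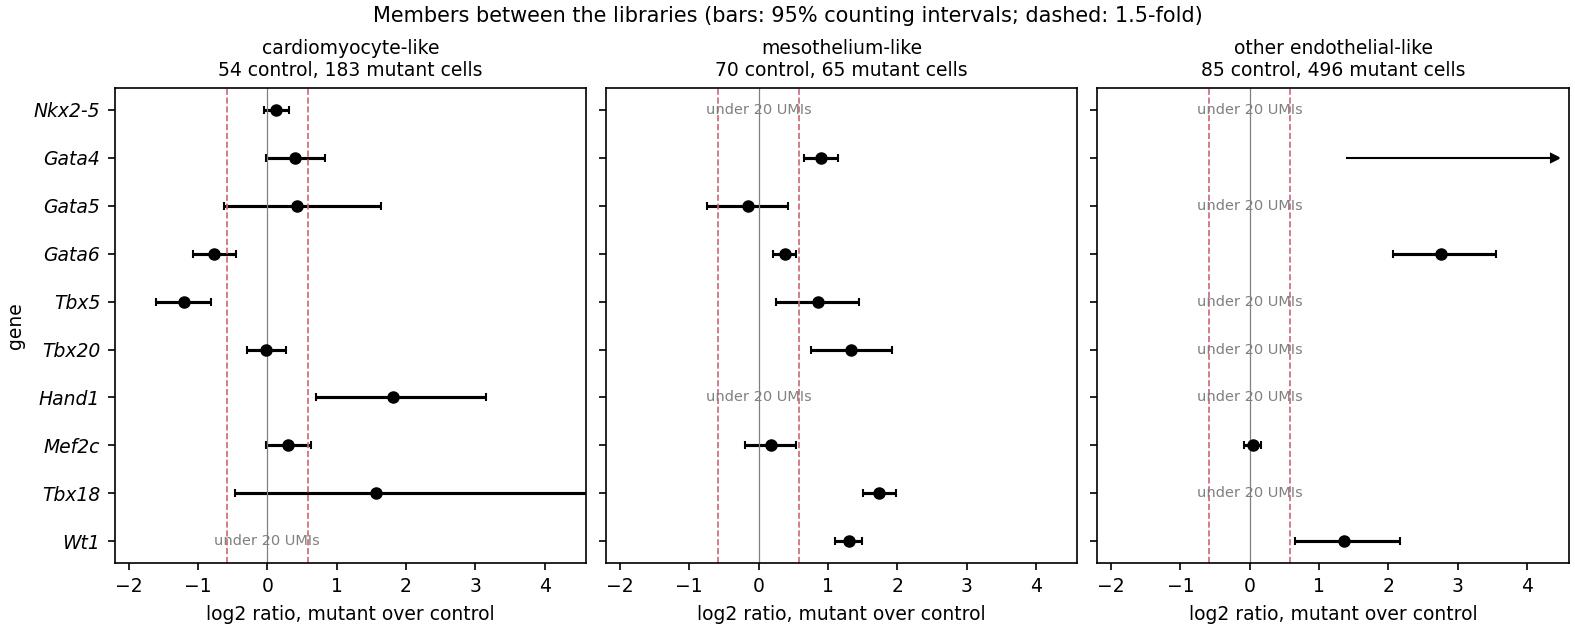
Log2 ratio of mutant over control CPM for the 10 genes in cardiomyocyte-like, mesothelium-like and other endothelial-like cells, with 95% intervals for counting error and dashed lines at 1.5-fold; genes under 20 UMIs are marked as such. In the mesothelium Tbx18 (1.74), Wt1 (1.30) and Tbx20 (1.34) lay right of the line, in heart muscle Tbx5 (−1.21) and Gata6 (−0.76) lay left of it, and in other endothelial cells Gata6 (2.76) lay right of it; the arrow for Gata4 begins at its lower bound of 1.40.

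The endothelium joined endocardial-like cells, which carried most of the core factors, with vessel cells that lacked most of them. In the 12 control and 88 mutant endocardial-like cells, which had 7 of 8 endocardial markers raised over all cells, Gata4 was at 128 [90.7–174] and 118 [103–133] CPM, Gata6 at 137 and 123 CPM and Gata5 at 42.5 and 26.8 CPM. Tbx20 was at 65.4 [39.9–101] and 129 [114–145] CPM and Tbx5 at 45.8 and 18.6 CPM. The levels of the 3 GATA genes overlapped between libraries, and with 12 control cells no ratio was formed. Nkx2-5 was at 0 and 4.30 CPM, beside the 1.96 and 3.42 CPM that the cardiomyocyte markers in these cells would bring with them. The source of the Nkx2-5 counts was not tested. Hand1 was not seen in either library. At a coarser division the cluster named as endocardial was led by Eln, with 6 endocardial and 5 arterial markers raised. It held 26 and 130 cells, with Gata4 at 79.9 and 94.2 CPM and Tbx20 at 41.0 and 109 CPM.

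In the endothelium as a whole, 4 of the 7 compared genes were past 1.5-fold higher in the mutant library and none lower, beside 30.0% of 14164 genes. These were Gata4 (12.0 and 21.9 CPM), Gata6 (40.7 and 73.3 CPM), Tbx20 (6.17 and 22.5 CPM) and Wt1 (6.17 and 18.4 CPM). The endocardial-like cells made up 12 of 147 and 88 of 695 endothelial-like cells, and they held 39 of 39 and 246 of 304 Gata4 UMIs and 20 of 20 and 269 of 312 Tbx20 UMIs, but Tbx20 also differed within them, and the part of their share in the levels of the whole endothelium was not tested. Mef2c, which acts in all endothelial cells, was at 323 and 311 CPM (log2 ratio −0.05). With the cells of highest doublet score left out, the remaining cells were integrated and clustered again. The endothelial-like class then held 144 control and 712 mutant cells, so its makeup changed as well, and the part of doublets in the values was not tested. Gata4 was then at 1.90, Tbx20 at 3.23 and Tbx5 at 0.76 against −0.51 with all cells.

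Gata6 also marked an arterial-like subset led by Eln, the gene of elastin, at 291 [218–381] CPM in 14 control cells and 237 [198–280.1] CPM in 42 mutant cells. Gata4 was at 0 and 8.76 CPM and Tbx20 at 0 and 36.8 CPM there. In the arterial-like subset led by Esm1, Gata6 was lower, at 49.0 and 28.4 CPM. Lymphatic-like cells had Gata6 at 6.75 and 37.2 CPM (3 and 30 UMIs in 19 and 32 cells).

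**Figure D4:**
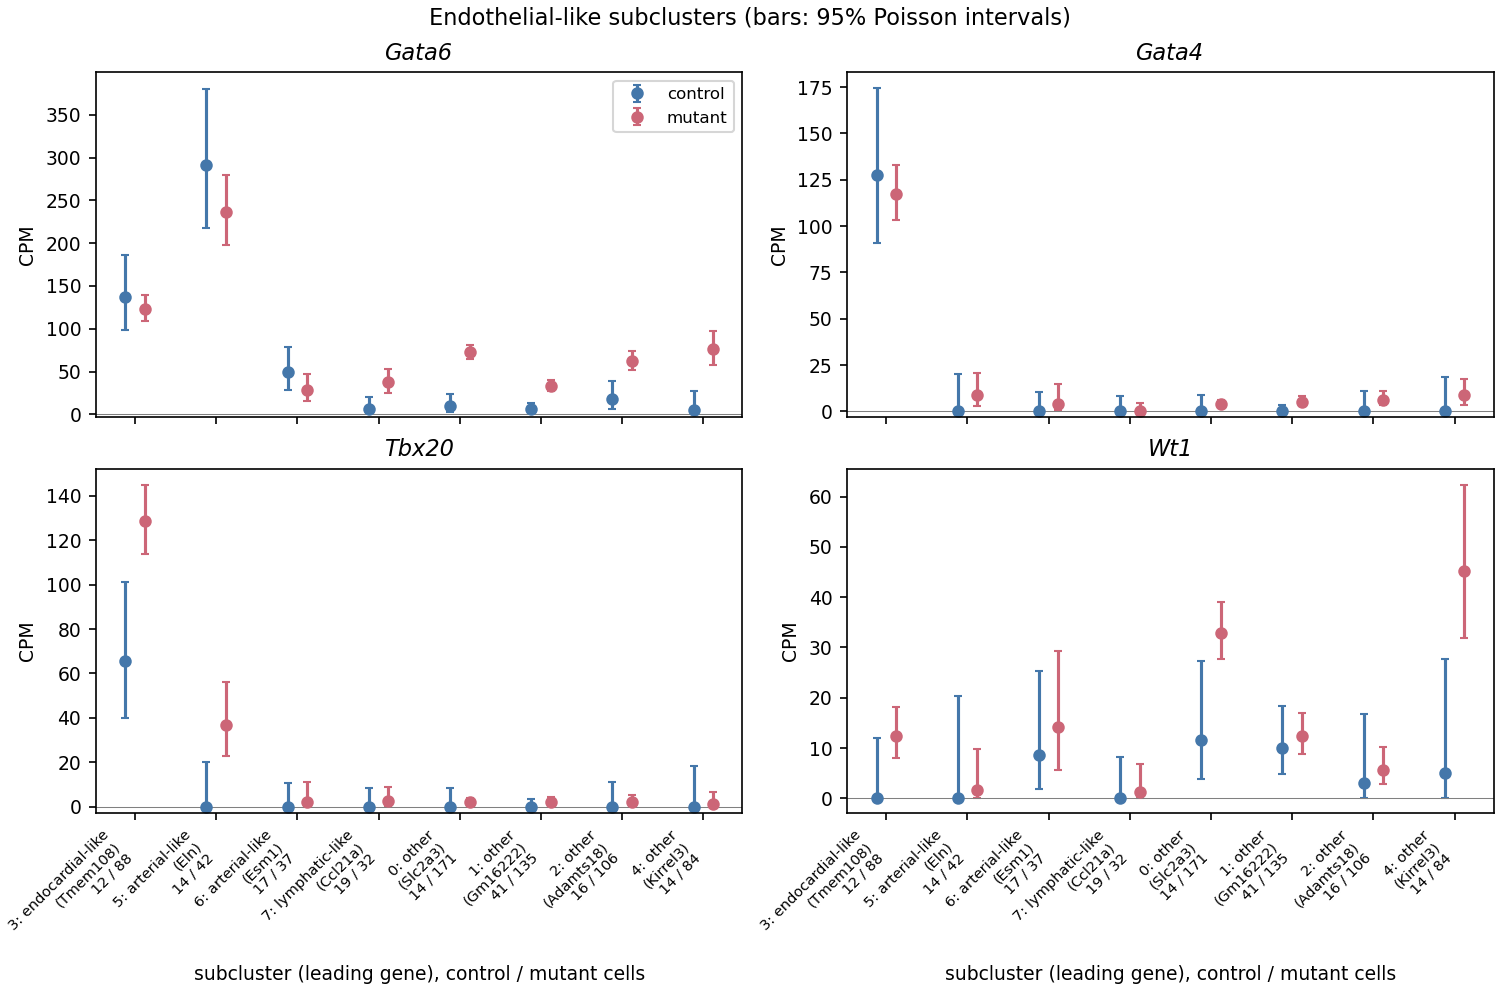
Levels in CPM of Gata6, Gata4, Tbx20 and Wt1 in the 8 endothelial subclusters of the control and the mutant library. Gata6 peaked in the arterial-like subset led by Eln (291 and 237 CPM). It was higher in the mutant library in the 4 subclusters not named as endocardial-like, arterial-like or lymphatic-like, and in the lymphatic-like one (6.75 and 37.2 CPM). Gata4 peaked in the endocardial-like subcluster (128 and 118 CPM).

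The vessel cells left after the endocardial-like, arterial-like and lymphatic-like subsets were set aside, 85 in the control and 496 in the mutant library, differed widely in Gata6. Gata6 was at 8.66 [5.04–13.9] CPM (17 UMIs in 14 cells, 16.5%) in the control and 58.5 [53.8–63.4] CPM (578 UMIs in 233 cells, 47.0%) in the mutant library, a log2 ratio of 2.76 (2.06 to 3.54). All 4 subclusters in this subset lay the same way, at 9.36 and 72.3 CPM in that led by Slc2a3, 5.97 and 33.2 CPM in that led by Gm16222, 18.2 and 62.2 CPM in that led by Adamts18 and 4.99 and 75.8 CPM in that led by Kirrel3. Their control values rest on 1 to 6 UMIs each. In the hemoglobin and macrophage group Gata6 was at 2.79 and 2.20 CPM, with no such difference between libraries.

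Wt1 and Gata4 accompanied Gata6 in these vessel cells. Wt1 was at 8.66 CPM (17 UMIs) and 22.3 CPM (220 UMIs), in 5.88% and 18.3% of cells, a log2 ratio of 1.36 (0.65 to 2.17). Gata4 had no UMI in the control and 51 UMIs in 31 mutant cells, 5.16 CPM, a log2 ratio of 1.76 against a floor of 3 control counts with a lower bound of 1.40, and of 0.08 against that floor with cells thinned to 5000 UMIs. These 3 of the 4 compared genes were past 1.5-fold, all higher in the mutant library, beside 31.6% of 12808 genes, and Mef2c, at 337 and 347 CPM, was not (0.04). Of the other regulators, 8 of 18 compared genes were past 1.5-fold higher there and 3 lower, beside the same 31.6%. The subset was set after the data were seen. Mesothelial markers were higher there in the mutant library too, at 0.156% and 0.976% of their mesothelial level, with 4 and 1 of the 9 markers at 0. These shares would bring 0.555 and 4.51 CPM of Gata6, 0.274 and 4.22 CPM of Wt1 and 0.199 and 2.33 CPM of Gata4. They would also bring 0.171 and 3.59 CPM of Tbx18, a mesothelial gene found at 0.509 and 0 CPM. The part of mesothelial RNA in these levels was not tested. In female-like cells alone the log2 ratio of Gata6 was 2.28 and that of Wt1 0.39, under 1.5-fold.

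Lung and foregut mesenchyme-like cells gave wide ratios, but their own markers differed between the libraries. Wnt2 was at 168 and 22.6 CPM, Tbx4 at 158 and 67.2 CPM and Fgf10 at 54.3 and 10.6 CPM, while Postn, a gene of fibrous and valve mesenchyme, was at 52.1 and 315 CPM, and the 5 class markers summed to 515 and 209.6 CPM. Tbx20 was at 5.53 CPM (48 UMIs in 9 of 356 cells) and 169 CPM (493 UMIs in 42 of 127 cells), a log2 ratio of 4.93 (4.50 to 5.39), and Gata4 at 8.99 and 94.0 CPM (3.39, 3.02 to 3.77). Gata6 (1.61), Tbx18 (3.34) and Wt1 (3.42) were also higher in the mutant library. Gata5, at 70.4 and 28.5 CPM (−1.31), and Tbx5, at 112 and 52.5 CPM (−1.10) were lower. These were 7 of the 8 compared genes, beside 26.4% of all compared genes of the class past 1.5-fold, and Mef2c was not past it (0.11). Without integration of the libraries Gata6 and Tbx5 changed sign, to −0.79 and 0.14, and Tbx20 was at 2.25. With classes set from marker counts Gata6 was at −1.05, Wt1 at −3.38, Gata4 at 0.87 and Tbx18 at 0.64. At resolution 0.8 the cluster that held 112 of the 127 mutant cells was named mesenchyme. The makeup of the class and a change within its cells cannot be told apart.

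Smooth muscle and mural-like cells, with 40 mutant cells, were too few to be compared by ratio, and their Tbx5 levels, 181 and 213 CPM, had overlapping intervals. Gata5 there was at 69.7 and 29.8 CPM. The mesenchyme-like class, 539 and 517 cells, held Gata6 at 51.2 and 45.2 CPM and Tbx5 at 48.1 and 51.4 CPM, both within 1.5-fold. The 12 mesenchymal markers summed to 11962 CPM in the control and 3770.3 CPM in the mutant library, and the part of this difference in the ratios of the class was not tested. Tbx18 was lower in the mutant mesenchyme, at 39.8 and 25.0 CPM (−0.67, −0.92 to −0.42), the reverse of its direction in the mesothelium, and Wt1 was at 8.68 and 5.28 CPM (−0.72). Hand1 was at 5.05 and 13.3 CPM (1.40), Tbx20 at 1.51 and 7.16 CPM (2.24), Gata4 at 2.02 and 5.91 CPM (1.55), Gata5 at 1.21 and 2.01 CPM (0.73) and Nkx2-5 at 0.303 and 5.03 CPM (3 control UMIs, 4.05, 2.40 to 6.39). So 5 of 10 compared genes were past 1.5-fold higher and 2 lower, beside 26.8% of all compared genes. A cartilage group within the class, 53 control and 61 mutant cells, held Hand1 at 0 and 28.5 CPM (25 UMIs in 11 cells). Tbx5, within 1.5-fold in the whole class, was at 38.4 and 136 CPM in this group.

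Branchial muscle-like cells, which arise from cardiopharyngeal mesoderm, held the next level of Nkx2-5 after heart muscle in the control. It was at 7.28 [6.19–8.51] CPM, 157 UMIs in 61 of 736 cells and 33.2% of the Nkx2-5 UMIs of the library, and at 3.52 [2.71–4.49] CPM in the mutant library, a log2 ratio of −1.05 (−1.49 to −0.62). With cells thinned to 5000 UMIs the ratio was −0.04. Cardiomyocyte markers in these cells would bring 2.94 and 2.43 CPM if all their UMIs came from heart muscle. Whether branchial muscle-like cells transcribe some of these markers themselves was not tested. Mef2c was at 142 and 137 CPM, and in the group led by Mylpf and Myh3, the genes of differentiating skeletal muscle fibres, it was at 630 and 667 CPM. Wt1 was at 8.44 and 7.25 CPM (−0.22). Of 8 compared genes, 5 were past 1.5-fold, beside 26.8% of all compared genes, with Gata4, Tbx20 and Tbx18 (1.90) higher and Nkx2-5 and Tbx5 (−3.51) lower in the mutant library, though apart from Nkx2-5 these genes were all under 3 CPM.

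Hand1 in the neuron-like class came from 1 small group. All 225 control and all 192 mutant Hand1 UMIs fell in a group whose leading genes include Cartpt and Dbh, a gene of noradrenergic neurons, with 28 and 23 cells. In these cells Hand1 was at 380.2 [332–433] and 303 [261–349] CPM, in 22 of 28 and 12 of 23 cells. Its lower level in the whole class, 56.7 against 24.6 CPM (−1.20, −1.49 to −0.92), went with the share of this group among the neuron-like cells, 14.5% and 4.90%. Tbx20 in the same group was at 32.1 [19.3–50.1] and 188 [155–225] CPM, intervals that did not overlap. Of 7 genes compared in the neuron-like class, Nkx2-5, Tbx20 (1.71) and Tbx18 (1.10) were past 1.5-fold higher and Gata6 (−1.24), Tbx5 (−3.33) and Hand1 lower in the mutant library, beside 26.5% of all compared genes. For Tbx5, 32 of 41 control UMIs came from 4 cells of 1 group.

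In epithelium-like cells Gata6 was at 37.6 CPM in the control (154 UMIs in 36 of 211 cells) and 5.80 CPM in the mutant library (32 UMIs), a log2 ratio of −2.70 (−3.30 to −2.14), and Gata5 at 6.85 and 1.27 CPM (−2.43). Both GATA factors are known from foregut endoderm. A group led by Krt5 made up 4.74% and 19.7% of the class, and a group led by Oc90 16.6% and 5.57%. The largest group, led by Epcam, made up 78.7% and 74.8%. The part of this makeup in the ratios was not tested. Tbx18 was at 1.22 and 3.99 CPM (1.71) and Mef2c at 24.4 and 24.6 CPM (0.01), so 3 of 4 compared genes were past 1.5-fold, beside 22.9% of all compared genes. In the hemoglobin and macrophage group the 2 compared genes were within 1.5-fold, beside 30.8% of all compared genes past it, with Mef2c at 382 and 373 CPM, and Mef2c was at 504 and 560 CPM in its macrophage-led part. The unnamed group led by Bmpr1b and Lama2 held Wt1 at 25.5 and 25.97 CPM, and of 4 compared genes Gata4 (4.44 and 17.9 CPM, 22 mutant UMIs in 2 cells) was past 1.5-fold higher and Tbx20 (9.99 and 6.49 CPM) lower, beside 24.6% of all compared genes. Neural crest-like cells, 54 and 25 in number, had Mef2c at 360.3 and 254 CPM. Over 10 classes, 67 gene and class pairs could be compared, of which 29 were past 1.5-fold higher in the mutant library, 14 lower and 24 within it, beside 22.9% to 39.0% of all compared genes past it by class.

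Low Nkx2-5 counts were seen in many mutant classes. They reached 2.90 CPM in epithelium-like cells, 3.001 CPM in the hemoglobin and macrophage group, 3.21 CPM in neuron-like cells and 5.03 CPM in mesenchyme-like cells. The cardiomyocyte markers found in those cells would bring 1.75, 2.92, 2.12 and 1.47 CPM with them, and the control library had 0.489, 0, 0 and 0.303 CPM. The part of such counts in the Nkx2-5 ratios of these classes was not tested.

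The factors met most often in the same cell in the mesothelium and in heart muscle. After each cell was thinned to 5000 UMIs, at least 3 of the 10 genes were detected in 68.6% [56.4–79.1] of control and 88.9% [78.4–95.4] of mutant mesothelium-like cells, and in 55.6% [41.4–69.1] and 52.0% [44.4–59.5] of cardiomyocyte-like cells. Endocardial-like cells followed in the control, with 41.7% [15.2–72.3] (5 of 12 cells). In the mutant library they had 22.1% [13.9–32.3], under the lung and foregut mesenchyme-like cells. The share was 7.39% and 25.2% in lung and foregut mesenchyme-like cells, and no epithelium-like cell of either library reached 3 genes. The most genes in 1 cell were 7, in the mesothelium of both libraries and in mutant heart muscle.

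**Figure D5:**
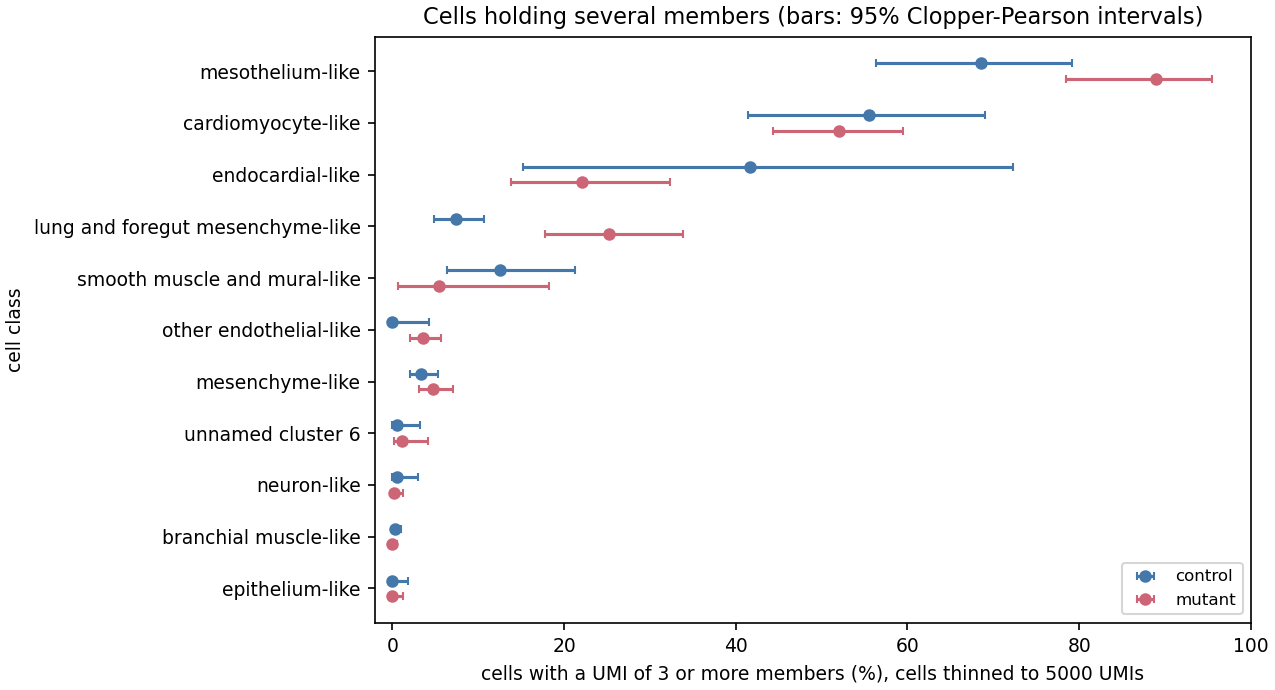
Percent of cells, thinned to 5000 UMIs, in which at least 3 of the 10 genes were detected, for 11 classes of the control and the mutant library, with 95% Clopper-Pearson intervals. Mesothelium-like cells stood highest in both libraries (68.6% and 88.9%), followed by cardiomyocyte-like cells (55.6% and 52.0%).

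Thinning also set the detection of single genes on 1 depth. Tbx18 was then detected in 34.3% and 74.6% and Wt1 in 64.3% and 77.8% of mesothelium-like cells, Gata6 in 4.76% and 22.6% of the other vessel cells, Hand1 in 0% and 12.99% and Tbx5 in 42.6% and 14.7% of cardiomyocyte-like cells. Nkx2-5 was detected in 75.9% and 84.7% of cardiomyocyte-like cells and in 0.5% and 0.699% of epithelium-like cells. In cells at their full depth, Nkx2-5 and Gata6 occurred together in 77.8% of control and 59.0% of mutant cardiomyocyte-like cells. From their separate shares 76.3% and 58.3% would follow. Tbx18 and Wt1 occurred together in 78.6% and 86.2% of mesothelium-like cells, where 78.6% and 85.1% would follow. Nkx2-5 and Wt1 were detected in nearly all cells of these classes, so these shares had to lie close to each other and do not show whether the genes of a pair go together. Gata4 and Tbx20 were found together more often than their separate shares give in mutant endocardial-like cells, 34 of 88 cells or 38.6% against 27.7%. The same held in mutant lung and foregut mesenchyme-like cells, 37 of 127 cells or 29.1% against 17.97%. Cells of a class differed in depth, and a mix of cell kinds within a class can raise such shares as well. The part of depth and of such a mix in these shares was not tested.

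The genes with the most similar levels were sought over 29 points, each 1 cluster in 1 library, among 18364 genes, as a description without a test, since points share libraries and depth. Nkx2-5 was nearest to Sh3bgr (Pearson's r of log2(CPM + 1) 0.911), Dlat (0.903) and Pln (0.894), the last a regulator of calcium uptake in heart muscle. Gata4 and Gata6 were each nearest to 1010001N08Rik (0.868 and 0.930), which lies opposite Gata6, and Gata6 was among the 3 nearest of Gata4 (0.799). Wt1 was nearest to Wt1os (0.913), transcribed beside it, and Tbx18 to Gdf6 (0.853) and Efemp1 (0.840). Gata5 followed Gm50321 (0.856), Gucy1a1 (0.855) and Wnt2 (0.844), and Tbx5 followed Gm43050 (0.945), Ednra (0.902), the endothelin receptor of smooth muscle, and Prdm6 (0.891). Tbx20 was nearest to 5033428I22Rik (0.813) and Hand2os1 (0.782), Hand1 to Gm34030 (0.861) and Nrsn2 (0.847), and Mef2c to Ehd4 (0.790) and Pxn (0.746).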

How the data were processed

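Counts were deposited by the authors as 1 gene by cell matrix of raw UMI counts per library, made with Cell Ranger 7.1.0 per the labels and aligned to the mouse genome mm10 (GRCm38). The annotation release and the handling of intronic reads were not given in the sources used here. The matrices held 4505 control and 5357 mutant barcodes, with 66935720 and 73915525 UMIs, and 28 barcodes occurred in both.

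The cell filter required over 2000 and under 9000 genes as well as a mitochondrial share under 10%, and left 2783 and 3489 cells. They were integrated by CCA anchors in Seurat 5.3.0 (R 4.3.3), using 2000 variable genes without the 10 genes and 24 other regulators. The cell-cycle scores were then regressed out of the integrated values. Cells were clustered on 30 components and 20 neighbours at resolution 0.3, the lowest to give 15 clusters. A finer clustering at 0.8 gave 26 clusters. Clusters were named from marker lists, and endothelial cells were clustered again at 0.8. The doublet caller of scanpy 1.11.5 marked 0 and 1 cells and was taken not to have worked, so no cell was removed. An alternative left out 162 and 230 barcodes with the highest scores and integrated and clustered the remaining cells again. Female-like cells were those with Xist UMIs and no UMIs of Ddx3y, Uty, Kdm5d or Eif2s3y.

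UMIs were summed per class and library with pandas 2.3.3 and numpy 2.4.6 (Python 3.11.15) and given as CPM with exact 95% Poisson intervals, ratios with conditional exact binomial intervals, and shares with Clopper-Pearson intervals (scipy 1.17.1). Genes with at least 20 UMIs were compared in classes with at least 50 cells per library, and past 1.5-fold was the threshold. The share of all such genes past it is given beside the counts of each class. Smaller subsets, and the cells divided by Myl2, are given as values or with ratios that fall outside this minimum. A level of 0 was bounded by a floor of 3 counts. The interval code was tested on simulated data. TMM scaling used edgeR 4.0.16. Promoter windows and positions came from RefSeq and GENCODE tables on GRCm38. No proteins were shown.

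The 10 genes, the other regulators and the marker lists were chosen with earlier results of these data known. Named genes were the 10 members, the regulators past 1.5-fold in cardiomyocyte-like cells, Isl1, the 3 nearest genes of each member and markers that check a label; Tcf21 and Tead1 were named after their values were seen. The division by Myl2, the subset of other endothelial-like cells and the coarser endothelial clustering were also set after the data were seen.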

Additional observations from a re-analysis of the deposited data

Results flagged for a closer look

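Among ratios past 1.5-fold whose interval left out equal levels and whose lower library held over 3 UMIs, 5 genes differed in opposite directions in different classes, and whether these ratios differ was not tested, with 1 library per genotype. The log2 ratio of Gata6 was 1.61 in lung and foregut mesenchyme-like cells and −2.70 in epithelium-like cells. The part of cell makeup in either value was not tested. Tbx5 stood at 0.86 in mesothelium-like cells and −3.33 in neuron-like cells, where 32 of its 41 control UMIs lay in 4 cells. Hand1 stood at 1.81 in cardiomyocyte-like cells and −1.20 in neuron-like cells. Within the Myl2-high cardiomyocyte-like cells, 11 control and 142 mutant cells, Hand1 was at −0.24 (−1.34 to 1.11). Its neuron-like value went with the share of the group led by Cartpt, 14.5% and 4.90% of the neuron-like cells. Tbx18 stood at 3.34 in lung and foregut mesenchyme-like cells and −0.67 in mesenchyme-like cells, and Wt1 at 3.42 and −0.72 in the same classes. With classes set from marker counts both signs turned for Wt1, to −3.38 and 0.25, and Gata6 in lung and foregut mesenchyme was at −1.05. Tbx18 was at 0.64 and −0.09 under the same setting, the latter within 1.5-fold. With cells thinned to 5000 UMIs, Tbx5 in the mesothelium was at 0.42, under 1.5-fold.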

How the results depend on the processing

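Each log2 ratio was computed again under 11 alternatives, of which 619 values lay within the counting interval of the reported ratio and 109 outside it, and 16 more changed the sign of a ratio past 1.5-fold. Ratios within 1.5-fold also changed sign in places, such as Mef2c in heart muscle (−1.04 in female-like cells) and Tbx5 in the endothelium (0.76 with doublets removed). In heart muscle, Tbx5 lay between −1.80 and −0.66, Gata6 between −0.94 and −0.61 and Hand1 between 1.40 and 3.13. In the mesothelium, Tbx18 lay between 1.56 and 1.74, Wt1 between 1.17 and 1.33 and Gata4 between 0.78 and 0.95. In other endothelial-like cells Gata6 lay between 2.28 and 2.87, Wt1 between 0.39 and 2.35 and the bound of Gata4 between 0.08 and 1.87. TMM scaling shifted the median of all genes by 0.16 in heart muscle, 0.12 in the endothelium, −0.13 in the mesothelium and 0.12 in neuron-like cells.

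Among the ratios past 1.5-fold whose sign changed, female-like cells gave 0.22 for Wt1 in mesenchyme and −0.80 for Tbx18 in neurons, thinning gave 0.72 for Gata6 and −0.28 for Tbx18 in neurons, and the mean over cells gave −0.43 for Gata4 in the Bmpr1b-led group. Without integration, Gata6 and Tbx5 in lung and foregut mesenchyme stood at −0.79 and 0.14. Resolution 0.8 gave −1.57 for Gata5 in mesenchyme. With at least 1000 genes per cell, Gata5 in mesenchyme was −0.36, Gata6 in neurons 0.12 and Tbx20 in the Bmpr1b-led group 2.39. Classes set from marker counts gave −1.05 for Gata6 and −3.38 for Wt1 in lung and foregut mesenchyme, −2.06 for Gata5 and 0.25 for Wt1 in mesenchyme, and 0.24 for Gata6 in neurons. The cause was not tested.

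The number of the 10 genes past 1.5-fold moved as follows. The number compared and the share of all genes past it can change with the setting too. They are not given here, so these counts show movement only and are not set against all genes. In branchial muscle it was 5, and 1 with thinning, 3 at resolution 0.8 or under 5% mitochondrial UMIs, and 2 with doublets removed, with marker counts or at a minimum of 50 UMIs. In neurons it was 6, and 2 with thinning or at 50 UMIs. In lung and foregut mesenchyme it was 7, and 3 without integration. In the endothelium it was 4, and 7 with doublets removed. In other endothelial-like cells it was 3, and 1 in female-like cells and 6 at a minimum of 1 UMI. In epithelium it was 3, and 1 at 50 UMIs and 6 at 1 UMI. In the Bmpr1b-led group it was 2, and 0 in female-like cells, with thinning, with doublets removed or at 50 UMIs, 1 with the mean over cells and 7 at 1 UMI, and in the hemoglobin and macrophage group 0, and 7 at 1 UMI. At 2-fold the count was 2 in the endothelium, 3 in the mesothelium, 4 in mesenchyme and 1 in the Bmpr1b-led group. The share of cells with at least 3 genes moved with depth: thinned to 10000 UMIs it was 89.4% and 82.1% in heart muscle and 98.4% and 97.8% in the mesothelium, and not thinned 90.7% and 88.5% in heart muscle and 98.6% and 92.3% in the mesothelium, where at these depths the control share was no longer the lower one.

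No paired analysis was possible because each genotype was 1 library. Other endothelial-like cells were not formed again without integration, with doublets removed, at resolution 0.8, with at least 1000 genes or from marker counts. A gene with few UMIs in a class cannot be read at this depth, and sex, litter and library cannot be told apart from genotype.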
